A study of Mus musculus with 82 samples.

Results

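The genes Cdx1, Cdx2 and Cdx4 were followed through every deposited peak list of a mouse stembryo series. They are 3 of 21938 protein-coding genes on the assembled chromosomes and were chosen by name, with earlier results of these data known. Positions below are given in kb from the transcription start, negative upstream, in the mouse build mm10. Cdx1 (ENSMUSG00000024619.8) lies on the minus strand at chr18:61018862-61036199, Cdx2 (ENSMUSG00000029646.3) on the minus strand at chr5:147300805-147307270 and Cdx4 (ENSMUSG00000031326.2) on the plus strand at chrX:103321398-103330592. The gene window was the gene body with 10 kb on each side, which gave 37.3 kb for Cdx1, 26.5 kb for Cdx2 and 29.2 kb for Cdx4, and the promoter was 1 kb on each side of the start. Stembryos, also called gastruloids, are cultured aggregates of mouse embryonic stem cells, which elongate after a pulse of the Wnt agonist Chiron (CHIR99021) between 48 and 72 h, so the libraries from 72 h on come after that pulse. The series holds 80 lists made from 82 libraries, with 61 lists from wild-type (wt) stembryos, for H3K27ac (acetylation at active promoters and enhancers), RNA polymerase II (PolII), its serine 2-phosphorylated form (pSer2PolII), the cohesin loader NIPBL, the cohesin subunit RAD21, the insulator protein CTCF, the transcription factor CDX2 and H3K27me3 (the Polycomb mark). Stembryos up to 96 h were pooled as they came, whereas from 108 h on only elongating ones were collected, so stage and selection cannot be told apart across that step.

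The other 19 lists come from lines homozygous for changes at CTCF binding sites (CBS) of the HoxD cluster, which is on another chromosome than any of the Cdx genes. The lists compared with wt below are Del(CBS1) and Del(CBS1-2) for H3K27ac at 96 and 120 h and Del(CBS1-5) for H3K27me3 at 96 h. The CTCF lists also hold 1 list each of Del(CBS2), Del(CBS4) and Ins(2xCBS-d4d8), a line with an inserted cassette. Del(CBS1) and Del(CBS1-2) are CRISPR clones of the wt cells, the second made by removing CBS2 from Del(CBS1) cells, while the Del(CBS1-5) stem cells were derived from blastocysts. Each library is a pool of stembryos. The study's methods call the libraries compared between wt and mutant lines biological duplicates and say that some, without naming them, came from different cultures, so part of the spread between numbered libraries may be technical.

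Cdx genes encode caudal-type homeodomain transcription factors of the ParaHox group. In the mouse embryo they are active in the primitive streak and the tail bud, where they respond to Wnt, FGF and retinoic acid signals, promote extension of the trunk and activate central Hox genes. Cdx2 also acts in the trophectoderm and, with Cdx1, in the gut epithelium. In a peak list a gene can only be seen as bound or marked where the signal passed the caller's threshold, and a pool of cells does not tell fewer marked cells from less signal per cell.

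CDX2 itself was called at its own gene and at both sister genes, and the sequences under its peaks are shown first because the results on CDX2 turn on them. Windows of 151 bases centred on CDX2 summits at 96 h were read from the GRCm38 (mm10) genome in the direction of the gene, and capitals mark the core TTTAT or its complement ATAAA.
Cdx2 -2.17 kb, minus strand of chr5:147309368-147309518: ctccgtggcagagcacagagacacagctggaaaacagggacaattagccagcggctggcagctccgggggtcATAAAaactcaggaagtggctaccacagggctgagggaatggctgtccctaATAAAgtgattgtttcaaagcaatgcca
Cdx4 4.62 kb, plus strand of chrX:103325946-103326096: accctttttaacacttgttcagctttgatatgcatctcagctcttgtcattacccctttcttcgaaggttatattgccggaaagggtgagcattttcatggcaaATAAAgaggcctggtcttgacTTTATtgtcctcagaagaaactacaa
Cdx4 5.26 kb, plus strand of chrX:103326585-103326735: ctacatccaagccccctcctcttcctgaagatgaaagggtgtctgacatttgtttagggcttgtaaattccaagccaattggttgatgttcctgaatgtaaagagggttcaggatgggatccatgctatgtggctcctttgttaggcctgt
The CDX motif TTTATNG, searched on both strands, was present in 36.8% of the 4654 CDX2 summit windows at 96 h, against 7.83% of NIPBL windows at 96 h and 5.18% of CTCF windows at 72 h. Of the 3 windows shown only the one at 4.62 kb of Cdx4 held it, 53 bases from the summit. The shorter core, which was added after the sequences had been read, was in 62.8% of CDX2, 27% of NIPBL and 31.5% of CTCF windows. It occurred 2 times in the window upstream of Cdx2, 1 base from the summit at its nearest, 2 times at 4.62 kb of Cdx4 and not at 5.26 kb.

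The strongest of these CDX2 regions lay upstream of Cdx2 itself. At 96 h it covered chr5:147309313-147309577, with its summit at -2.17 kb, a fold enrichment of 7.11 over the local background and a -log10 q of 22.5, which placed it 809th of 4654 summits by fold. At 120 h a region with its summit at -2.14 kb was called again, with a fold enrichment of 5.67 and rank 931 of 2351. A second region at 96 h, downstream of the gene at 13.91 kb, was weak, with a fold enrichment of 3.88 and rank 3863. CDX2 binding next to its own gene was thus called at both later stages at the upstream site and at 96 h alone at the downstream one.

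At the sister genes CDX2 was called inside the first intron. Cdx4 had a region at 4.62 kb, chrX:103325870-103326179, with a fold enrichment of 6.96 and rank 867 at 96 h, and a fold enrichment of 5.76 and rank 860 at 120 h. A further region of Cdx4 at 5.26 kb, chrX:103326549-103326769, had a fold enrichment of 6.02 at 96 h and was not called at 120 h. Cdx1 had a single region, at 1.21 kb at 96 h, with a fold enrichment of 4.24, a -log10 q of 4.82 and rank 3412. Both Cdx2 and Cdx4 thus had a region that returned at 120 h, whereas the one of Cdx1 was among the weaker summits of its list.

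All 3 genes had a CDX2 region in their window at 96 h, where 11.2% of all protein-coding genes had one, and Cdx2 and Cdx4 had one at 120 h, where the share was 5.7%. None had one at 72 h, where the list held 147 regions and 0.419% of genes had one in the window. The nearest CDX2 summit at 72 h was 1046.15 kb from the start of Cdx2 and 4525.25 kb from that of Cdx1. No CDX2 region touched a promoter of the 3 genes at any stage, whereas with a promoter of 2.5 kb on each side Cdx2 had one in 2 of 3 lists, as did 0.925% of genes in as many or more, and Cdx1 in 1 of 3, as did 4.07%. The CDX2 lists held 147, 4501 and 2272 regions at 72, 96 and 120 h from 1 library each, and of the regions at 96 h 33.3% shared a base with one at 120 h. When the lists were cut to the 147 strongest regions of each, none of the 7 regions at the Cdx genes was left, so presence by stage cannot be told apart from the length of the list.

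The surroundings of the CDX2 regions differed between the genes. The region at -2.17 kb of Cdx2 shared a base with NIPBL in the 96 h list and in 1 of 8 NIPBL lists in all, with RAD21 in 2 of 16 lists and with none of the 13 H3K27ac, 8 PolII or 2 CTCF lists. Among all CDX2 regions at 96 h, 73.1% shared a base with a NIPBL region of that stage, 38.0% with an H3K27ac region of the unnumbered 96 h list and 8.84% with a CTCF region at 72 h. The 2 RAD21 lists were the first replicates of 96 and 108 h, which met 58.9% and 58.6% of all CDX2 regions, against 18.6%, 22.0% and 21.0% in the other replicates of these stages. The site upstream of Cdx2 was therefore met in the RAD21 lists that met the largest shares of all CDX2 regions.

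The 2 CDX2 regions of Cdx4 both met NIPBL in 6 of 8 lists, all of those from 96 to 168 h and neither of those at 72 and 84 h. Of all CDX2 regions at 96 h, 13.9% met NIPBL at 72 h, 17.0% at 84 h and 45.7 to 73.1% later. The region at 4.62 kb met H3K27ac in 3 of 13 lists, and that at 5.26 kb in 1 of 13. The highest H3K27ac summit of the gene lay between these 2 regions, at 4.97 kb, in both numbered lists of 96 h. In the unnumbered list of 96 h it lay past both, at 5.9 kb, with a height of 23.3 against 20.7 at 4.96 kb. The CDX2 region of Cdx1 met regions of most other assays, NIPBL in 8 of 8 lists, RAD21 in 14 of 16, H3K27ac in 10 of 13, PolII in 5 of 8, CTCF in 2 of 2 and pSer2PolII in 2 of 5. Its summit was 78 bases from the nearest CTCF summit. By list, 8.91 to 58.9% of all CDX2 regions at 96 h met RAD21 and 15.9 to 41.1% met H3K27ac. For PolII the shares were 10.9 to 18.5%, for CTCF 8.69 and 8.84% and for pSer2PolII 3.24 to 10.1%.

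CTCF binds directionally to a long motif and halts cohesin moving along chromatin, so its sites are where RAD21 gathers. Downstream of Cdx2, 3 CTCF sites had a match to the core of its motif, CC, 3 bases of any kind, AG, 2 of any kind and GGC, searched on both strands, and every match ran in the direction of the gene. The motif was in 42.0% of CTCF summit windows at 72 h and in 3.39% of the CDX2 windows at 96 h. The 3 sites are given as 81 bases on the minus strand of mm10, with the match in capitals.
Cdx2 7.93 kb, chr5:147299302-147299382: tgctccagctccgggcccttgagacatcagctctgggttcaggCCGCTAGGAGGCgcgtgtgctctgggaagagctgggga
Cdx2 12.99 kb, chr5:147294237-147294317: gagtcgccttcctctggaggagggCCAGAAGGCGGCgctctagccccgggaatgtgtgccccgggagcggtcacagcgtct
Cdx2 13.97 kb, chr5:147293261-147293341: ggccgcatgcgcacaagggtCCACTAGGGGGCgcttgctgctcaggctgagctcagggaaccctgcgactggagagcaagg
The sites at 7.93 and 13.97 kb were called in all 8 CTCF lists, wt and changed lines alike, with fold enrichments of 4.85 to 13.2 and 2.03 to 16.0, and the site at 12.99 kb in 6 of 8 with 2.81 to 6.8. RAD21 had a summit within 200 bases of each of the 3 in 16 of 16 wt lists. The weak CDX2 region at 13.91 kb was on the third of them: its summit was 43 bases from the centre of the CTCF motif, and no TTTAT core lay in its region. Cdx2 also had CTCF at -0.07 kb in 1 of 8 lists, at 0.85 kb in 4 and at 2.6 kb in 3, each without a motif match. A CTCF region touched its promoter in 2 of 2 wt lists, as at 28.5% of genes. In the other lines it did in 3 of 6 lists, with as many or more at 25.3% of genes.

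Cdx1 had 2 CTCF sites in 8 of 8 lists, at -3.81 kb with fold enrichments of 6.2 to 14.8 and at 1.29 kb in the first intron with 2.56 to 10.3. The upstream site had a motif in the direction of the gene and RAD21 in 16 of 16 wt lists, whereas the intronic site had no match to these letters and RAD21 in 13 of 16. Cdx4 had no CTCF region in any of the 8 lists and RAD21 in 3 of 16 wt lists. A CTCF region in the window in every list of every line, as at Cdx1 and Cdx2, was found at 55.9% of genes, and a RAD21 region in every wt list at 54.2%. Presence of both was thus common among genes, and of the 3 Cdx genes only Cdx4 lacked CTCF throughout. Over all genes, 20.2% had no CTCF region in the window in either wt list, and 20.0% had none in the 6 lists of the other lines.

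H3K27ac was gained at all 3 genes between 48 and 72 h, across the Chiron pulse. None of the 3 promoters had a region at 48 h and all 3 had one at 72 h, a change shared by 12.5% of the 8119 genes without one at 48 h. In the whole window Cdx2 and Cdx4 had no region at 48 h and had one at 72 h, as did 13.3% of the 4897 genes without one at 48 h, while Cdx1 had 2 regions at 48 h, with summits at 15.29 and 23.58 kb, away from its promoter. The 48 h list was the longest of the assay, with 67663 regions against 47221 at 72 h, so the absence at 48 h did not go with a short list.

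The height of a summit was taken as its pileup over the lowest background of its own list, a ratio with no unit. At the start of Cdx1 the H3K27ac height was 47.0, 54.1, 53.0, 33.6, 20.7 and 14.8 from 72 to 132 h and 9.69 at 168 h, and at 144 h a region without a summit of its own reached the promoter. At the start of Cdx2 it was 22.9, 48.1, 69.0, 29.2, 27.1, 22.7, 17.8 and 22.0 from 72 to 168 h, that is at 72, 84, 96, 108, 120, 132, 144 and 168 h. The numbered replicates of 96 h gave 52.4 and 44.0 for Cdx1, beside 53.0 in the unnumbered list, and 43.0 and 42.0 for Cdx2, beside 69.0. Cdx1 thus differed little from 72 to 96 h, with values of 44.0 to 54.1, and Cdx2 was highest at 96 h in the unnumbered library alone, since both numbered libraries were below the 48.1 of 84 h. From 108 h on both genes were lower than in any library of 96 h.

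The fold enrichment of the peak caller was lower at the Cdx2 promoter than at that of Cdx1. In the unnumbered list of 96 h it was 2.29 at Cdx2 and 4.51 at Cdx1, with heights of 69.0 and 53.0. In the numbered lists it was 1.85 and 1.91 at Cdx2 and 4.74 and 4.42 at Cdx1, with heights of 43.0 and 42.0 at Cdx2 and 52.4 and 44.0 at Cdx1. Since the fold is taken over a local background estimated from the same library, that background was higher around Cdx2. In the numbered lists of 96 h, regions were called across Cdx2 at -2.98 and -2.82 kb, at -0.70 and -0.80 kb and at several summits up to 3.05 kb. The fold enrichment at Cdx2 is therefore read beside the height.

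Cdx4 differed from its sisters in where the acetylation lay. Its promoter had an H3K27ac region in 3 of 13 wt lists, at 72, 96 and 168 h, against 12 of 13 for Cdx1 and 10 of 13 for Cdx2. Of all genes 63.9% had a promoter region in as many or more lists as Cdx4, 48.1% as Cdx1 and 51.8% as Cdx2. In Cdx4 the gene body between 4 and 6 kb had the highest summits up to 132 h. Their height was 5.8, 8.07, 23.3 and 11.4 from 72 to 108 h and 6.13 at 132 h, with no region in the unnumbered lists of 120 and 144 h and a highest summit of 7.64 at 0.45 kb at 168 h. The numbered replicates gave 35.0 and 31.5 at 96 h and 16.4 and 18.8 at 120 h. Cdx4 was highest at 96 h in the unnumbered and in the numbered libraries alike, while at 120 h a region was present in the numbered libraries only. The unnumbered 120 h list was shorter, with 32590 regions against 53644 and 51590 in the numbered ones.

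**Figure D1:**
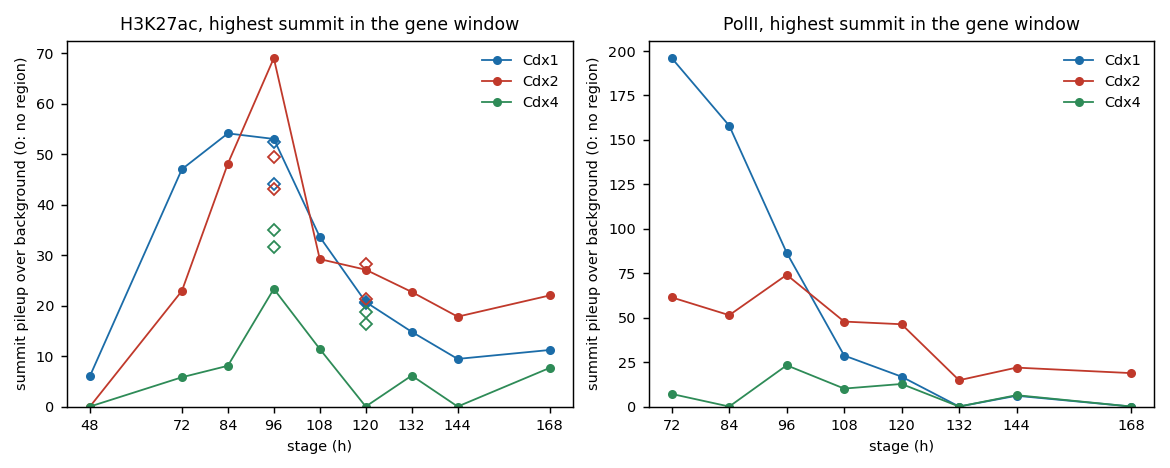
Height of the highest summit in the gene window (pileup over the lowest background of the list, no unit) for H3K27ac and PolII by stage in hours. Filled circles joined by lines are unnumbered libraries, open diamonds are numbered replicates, and 0 stands for no region. PolII at Cdx1 is highest at 72 h (196). H3K27ac at Cdx4 is highest at 96 h, and at Cdx2 it is 69.0 in the unnumbered library of 96 h but 49.4 and 43.1 in the numbered ones, beside 48.1 at 84 h.

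PolII at the starts followed a different order. At Cdx1 the height was 196, 158, 86.5, 28.7 and 16.8 from 72 to 120 h and 4.71 at 144 h, and no region was called at 132 and 168 h. At Cdx2 it was 61.4, 51.4, 74.1, 47.8, 46.3, 14.8, 21.9 and 18.8 at the 8 stages from 72 to 168 h. At Cdx4 it was 7.07 at 72 h, then 23.2, 10.1 and 12.7 from 96 to 120 h and 6.4 at 144 h, and no region was called at 84, 132 and 168 h. Cdx1 was the highest of the 3 up to 96 h and Cdx2 from 108 h on, and each stage is 1 library without a replicate. Cdx2 had a promoter region in 8 of 8 PolII lists, as did 45.6% of genes. Cdx1 had one in 6, as did 49.7% in as many or more, and Cdx4 in 5, as did 51.0%.

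The elongating form pSer2PolII, which builds up towards and past the ends of transcribed genes, was called beyond the 3′ ends of all 3 genes and also at the starts of Cdx1 and Cdx2. At Cdx2 its highest summit was at 7.45 kb at 72 h, 9.06 kb at 84 and 96 h and 9.08 kb at 120 h, with heights of 19.5, 26.4, 23.1 and 6.8, while the gene is 6.47 kb long. At its start the heights were 7.09 at 72 h and 12.1 at 96 h. At Cdx1 the highest summits were at the start at 72 and 96 h, both at 0.11 kb, with heights of 16.5 and 19.3, and past the end at 84 h, at 19.12 kb with 18.5. The gene is 17.3 kb long, and summits past the end lay from 18.10 to 19.59 kb at 72 h and from 18.94 to 20.80 kb at 96 h, and none was called in the window at 120 and 144 h. Cdx4 had only low summits, at 10.56 kb at 96 h with a height of 3.1 and at 12.24 kb at 120 h with 3.29. No gene of the 3 had a region at 144 h, where 29.3% of all genes had one in the window, against 58.9%, 23.5%, 59.7% and 52.2% at 72, 84, 96 and 120 h.

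The window of Cdx2 also holds the last part of Urad, a gene of uric acid breakdown that starts at -15.17 kb on the same strand and ends at -7.71 kb. Regions near that end were called in all 8 PolII lists, with their highest summits between -8.41 and -8.22 kb and heights from 6.47 at 168 h to 49.1 at 96 h. H3K27ac was called there in 12 of 13 lists, all but 48 h, with a height of 57.4 at 96 h. H3K27me3 was called there in all 6 wt lists, while the start of Urad had no PolII or H3K27ac promoter region in any wt list. Whether these regions belong to Cdx2 or to Urad was not tested. The window of Cdx1 reaches the start of Slc6a7, a brain proline transporter, at 21.98 kb, and that of Pdgfrb, a growth factor receptor, at -8.95 kb.

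NIPBL occupied different parts of the 3 genes. Cdx1 had a NIPBL region at its promoter in 8 of 8 lists, as did 8.36% of genes, and Cdx2 in 5 of 8, as did 39.4% in as many or more. With a promoter of 2.5 kb both genes had one in 8 of 8, as did 8.84% of genes. At equal list length Cdx1 had one in 4 and Cdx2 in 1 of 8, as did 12.2 and 32.9% of genes in as many or more. Counting summits only, Cdx1 had one in 6 and Cdx2 in 4 of 8, as did 31.2 and 45.4% in as many or more. The highest Cdx2 summits lay inside the gene at every stage, at 2.59, 2.33, 2.28, 1.66, 0.28, 2.68, 2.61 and 2.99 kb from 72 to 168 h, with heights of 12.3, 11.3, 25.5, 12.3, 11.2, 19.6, 21.1 and 13.6. Cdx4 had none at its promoter, and from 96 h on its highest summits were all between 4.59 and 5.28 kb, at the CDX2 regions, with heights of 6.13 to 12.6. The NIPBL lists of 72 and 84 h were short, with 6652 and 4888 regions against 18588 to 40490 later, so the absence at Cdx4 at these stages cannot be told apart from list length.

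The share of the gene window covered by called regions was set against hours by Spearman's rho and by Pearson's r, each with an exact two-sided permutation p over stages, adjusted by Benjamini-Hochberg over all genes of the assay. In 12 tests, 3 genes by 4 assays, none passed an adjusted p of 0.05 for rho. Over all genes 6.42% passed for H3K27ac and 6.23% for NIPBL, and 0.0% for PolII and for RAD21, although at an unadjusted p under 0.05 there were 274 rising and 205 falling genes of 13653 for PolII and 1803 and 254 of 17819 for RAD21. PolII at Cdx1 had the steepest of the 12 relations. Its covered share was 5.06, 4.19, 4.26, 3.06, 3.06, 0, 2.06 and 0% from 72 to 168 h, with rho -0.934 (exact p = 0.00169, adjusted p = 0.61) and r -0.901 (exact p = 0.00243, adjusted p = 0.635, and r -0.789 without 72 and 168 h).

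NIPBL at Cdx4 covered 0, 0, 2.59, 1.64, 3.18, 1.86, 4.01 and 4.11% of the window from 72 to 168 h. Its rho was 0.874 (exact p = 0.00794, adjusted p = 0.0638) and its r 0.865 (exact p = 0.00694, adjusted p = 0.0426, and r 0.746 without 72 and 168 h), beside a median rho of 0.719 over all genes tested, so a rise of NIPBL coverage with time was general in these lists. Without the 96 h library the rho passed, at an adjusted p of 0.0206, as did 68.4% of the 13878 genes tested in that setting. H3K27ac at Cdx2 covered 0, 9.37, 13.9, 15.7, 11.7, 8.16, 9.82, 7.31 and 9.86% from 48 to 168 h, which rises and falls and gave a rho of 0.0333 (exact p = 0.948, adjusted p = 0.97). The H3K27ac rho was 0.183 for Cdx1 and -0.254 for Cdx4, with adjusted p of 0.764 and 0.67, and a median of -0.483 over all genes. RAD21 gave 0.5, -0.476 and 0.109 for Cdx1, Cdx2 and Cdx4, with adjusted p of 0.553, 0.588 and 0.903.

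**Figure D2:**
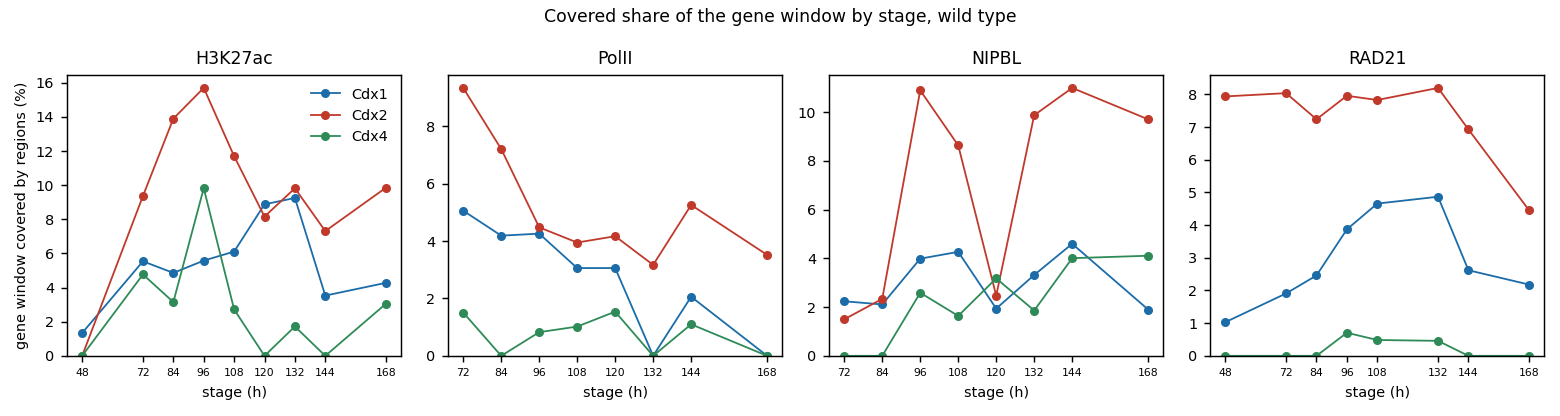
Percent of the gene window covered by called regions, by stage in hours, for H3K27ac (unnumbered libraries), PolII, NIPBL and RAD21 (mean of the libraries of a stage) in wild-type stembryos. H3K27ac coverage of Cdx2 and Cdx4 is highest at 96 h, at 15.7% and 9.82%, and NIPBL coverage of Cdx4 begins at 96 h.

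Genes whose H3K27ac coverage over the 9 stages was most like that of a Cdx gene were listed as a description over points that share libraries. For Cdx2 they were Slc25a51, Sp5, Klhl32, Hinfp and Rftn1, with r of 0.94 to 0.91, of which Sp5 is a Wnt target that encodes a zinc finger factor. For Cdx4 they were Tnfrsf19, Ror2, Rora, Anapc10 and Ubr1, with r of 0.97 to 0.953, of which Ror2 encodes a receptor for Wnt5a. For Cdx1 they were Uncx, Gm9913, 2510039O18Rik, Slc25a47 and Ttll11, with r of 0.918 to 0.885, of which Uncx encodes a homeodomain factor of the somites. Among the Cdx genes r was 0.724 between Cdx2 and Cdx4, 0.441 between Cdx1 and Cdx2 and 0.0591 between Cdx1 and Cdx4.

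A list of 16 axial genes reported with Cdx factors gave the surroundings of these patterns. H3K27ac promoter regions were present at 10, 14, 16, 16, 16, 13, 13, 8 and 12 of the 16 from 48 to 168 h, where the share of all genes was 63.0, 64.3, 61.0, 61.4, 57.7, 54.9, 56.4, 52.5 and 57.2%. The counts at 48 and 144 h were thus near that share. CDX2 regions in the window were present at 1, 10 and 5 of the 16 at 72, 96 and 120 h, beside the 0.419%, 11.2% and 5.7% of all genes given above. The one at 72 h was at Fgf8, a growth factor of the tail bud, at 9.5 kb with a fold enrichment of 4.83, and Fgf8 also had summits at 8.09 kb at 96 h (8.65) and 8.12 kb at 120 h (5.27). Wnt3a, a Wnt ligand of the streak, had CDX2 summits at 48.02 and 46.68 kb at 96 h, with fold enrichments of 4.58 and 3.38. T, the streak factor Brachyury, and Cyp26a1, which breaks down retinoic acid, had none. Beside the 63.0% of all genes at 48 h and 57.2% at 168 h, genes with H3K27ac at the promoter numbered 5 of 5 for pluripotent cell markers at 48 h and 2 of 5 at 168 h, 4 and 2 of 5 for streak markers, 2 and 3 of 5 for somitic, 2 and 4 of 5 for neural and 4 and 3 of 5 for endoderm markers, and 3 and 4 of 5 for markers of trophoblast, the other early site of Cdx2. The part of changing cell types in the levels above was not tested.

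H3K27me3, which Polycomb complexes place on silent or poised genes, was called at the starts of Cdx1 and Cdx2 only at the later stages. At 144 h all 3 promoters had a region, as did 17.3% of genes. At Cdx1 this was the only promoter region in 6 wt lists, with its summit at -0.23 kb, a height of 16.8 and a fold enrichment of 6.25 that placed it in the top 2.1% of its list. At Cdx2 the promoter was covered at 120 h, with a height of 35.9, and at 144 h, with 16.8, and the covered share of the window was 3.05% at 72 h, 3.25, 2.72 and 0.975% in the 3 libraries of 96 h, 18.6% at 120 h and 5.95% at 144 h. At 120 h H3K27ac was called at the same promoter in the unnumbered library, with a height of 27.1, and in neither numbered one, so both marks at this start were seen in 1 of 3 H3K27ac libraries of that stage, in pools of cells that do not show whether 1 cell held both. At Cdx4 regions near the start were called at 72, 120 and 144 h and in 1 of the 3 libraries of 96 h, with heights of 9.76, 7.08, 7.45 and 5.66.

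In the deletion lines the covered share of H3K27ac was compared with the 2 numbered wt libraries of the same stage, 2 against 2, where the smallest two-sided exact permutation p is 0.333, so that test cannot pass 0.05. No other test was run, and overlap of the groups is given. Both lines were set against the same wt libraries. At 120 h the window of Cdx2 was covered to 14.6 and 14.2% in Del(CBS1-2) and 10.0 and 8.37% in Del(CBS1) stembryos, against 7.49 and 7.04% in wt stembryos. Cdx1 was covered to 10.2 and 9.36% in Del(CBS1-2) and 9.59 and 10.3% in Del(CBS1) stembryos, against 6.74 and 5.06% in wt. Cdx4 was covered to 8.45 and 7.68% in Del(CBS1-2) and 5.77 and 5.56% in Del(CBS1), against 5.22 and 4.89% in wt. All 6 of these pairs of groups were apart, with the deletion line higher, and the unnumbered wt library of 120 h had 8.16, 8.88 and 0% at Cdx2, Cdx1 and Cdx4.

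That direction was common among all genes at 120 h. Groups did not overlap and were higher at 61.8% of genes in Del(CBS1-2) and at 45.4% in Del(CBS1), and lower at 2.27% and 5.45%, so the count at the Cdx genes is read against these shares. The differences of Del(CBS1-2) minus wt were 7.13 percentage points for Cdx2 (means 14.4 ± 0.342 and 7.26 ± 0.323, SD, n = 2 each), 3.87 for Cdx1 and 3.01 for Cdx4, where the median over all genes was 0.713, and that of Cdx2 was at percentile 99.8 of all genes. For Del(CBS1) minus wt they were 1.93, 4.04 and 0.61 for Cdx2, Cdx1 and Cdx4, with a median of 0.433. The lists of the lines were longer, with 62965 and 61894 regions in Del(CBS1-2) and 62577 and 63020 in Del(CBS1), against 53644 and 51590 in wt, and covered 34.2 and 35.3 Mb in Del(CBS1-2) and 29.4 and 29.6 Mb in Del(CBS1), against 25.6 and 22.6 Mb in wt. With lists cut to equal length 5 of the 6 pairs of groups overlapped. Cdx1 in Del(CBS1-2) stayed apart, with 5.98 and 8.64% against 3.05 and 3.78% in wt, where 53.1% of genes were apart and higher. The covered share of Cdx2 was 8.84 and 6.13% in Del(CBS1-2) and 6.45 and 3.33% in Del(CBS1), against 6.53 and 3.24% in wt. That of Cdx4 was 6.3 and 2.22% in Del(CBS1-2) and 3.81 and 4.3% in Del(CBS1), against 2.61 and 4.17% in wt. Cdx1 in Del(CBS1) had 5.19 and 3.39%, against 3.05 and 3.78% in wt, and 36.3% of genes were apart and higher in that line. The labels describe the cells of the Del(CBS1-2) libraries under another tag than those of wt, so that tag and genotype cannot be told apart.

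At the start of Cdx2 an H3K27ac region within 1 kb was called in all 4 deletion lists of 120 h and in neither numbered wt list, where the nearest summits were at 1.24 and 1.27 kb. The unnumbered wt list of 120 h had one, with its summit at 0.76 kb. With a promoter of 2.5 kb Cdx2 had a region in 12 of 13 wt lists, all but 48 h, so both numbered lists of 120 h had one. The share of all genes with such a split at 1 kb was not counted. Promoter regions were called at 54.2 to 54.9% of all genes in the 4 deletion lists, against 52.1 and 50.5% in numbered wt. The split is therefore not read as a result about Cdx2. The highest summits in the Cdx2 window had heights of 34.2 and 33.4 in Del(CBS1-2) and 24.7 and 22.0 in Del(CBS1), against 28.2 and 21.2 in wt. These summits lie at different sites, at -8.03 and -7.99 kb by the end of Urad in Del(CBS1-2), at 1.48 and 1.5 kb in Del(CBS1), and at 1.49 and -7.8 kb in wt. By this height Del(CBS1-2) was apart from wt and higher, as were 57.3% of genes, while Del(CBS1) overlapped with wt, with a difference of -1.34. At Cdx4 the height in Del(CBS1) was apart and lower, with 15.9 and 15.5 against 16.4 and 18.8 in wt and a difference of -1.92, where 7.35% of genes were apart and lower.

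By covered share fewer pairs were apart at 96 h. In Del(CBS1-2) the share was 20.8 and 20.8% at Cdx2, against 16.9 and 18.7% in wt, and 5.35 and 6.13% at Cdx1, against 4.15 and 3.86% in wt, and neither pair overlapped, where 25.7% of genes were apart and higher and 13.4% apart and lower. Cdx4 overlapped, with 7.05 and 7.99% in Del(CBS1-2) and 8.78 and 7.37% in wt. In Del(CBS1) all 3 genes overlapped with wt, with 16.1 and 17.7% against 16.9 and 18.7% at Cdx2, 5.04 and 3.81% against 4.15 and 3.86% at Cdx1 and 8.7 and 9.36% against 8.78 and 7.37% at Cdx4, where 22.3% of genes were apart and higher and 12.7% apart and lower. For Cdx1 at 96 h the unnumbered wt library, at 5.58%, lay within the range of Del(CBS1-2). By height of the highest summit Del(CBS1-2) was apart from the numbered wt libraries and higher at all 3 genes. The unnumbered wt library was also below Del(CBS1-2) at Cdx1 (53.0) and Cdx4 (23.3). At Cdx2 its height of 69.0 lay between the 63.0 and 71.6 of Del(CBS1-2). In Del(CBS1) the height was 55.7 and 58.7 at Cdx1, against 52.4 and 44.0 in wt, also apart. At Cdx2 it was 49.6 and 57.6, against 49.4 and 43.1 in numbered wt and 69.0 in the unnumbered wt library, and Cdx4 overlapped. With a 5 kb window the covered share of Cdx2 in Del(CBS1) was apart and higher. The share of all genes was not counted in these settings at 96 h.

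**Figure D3:**
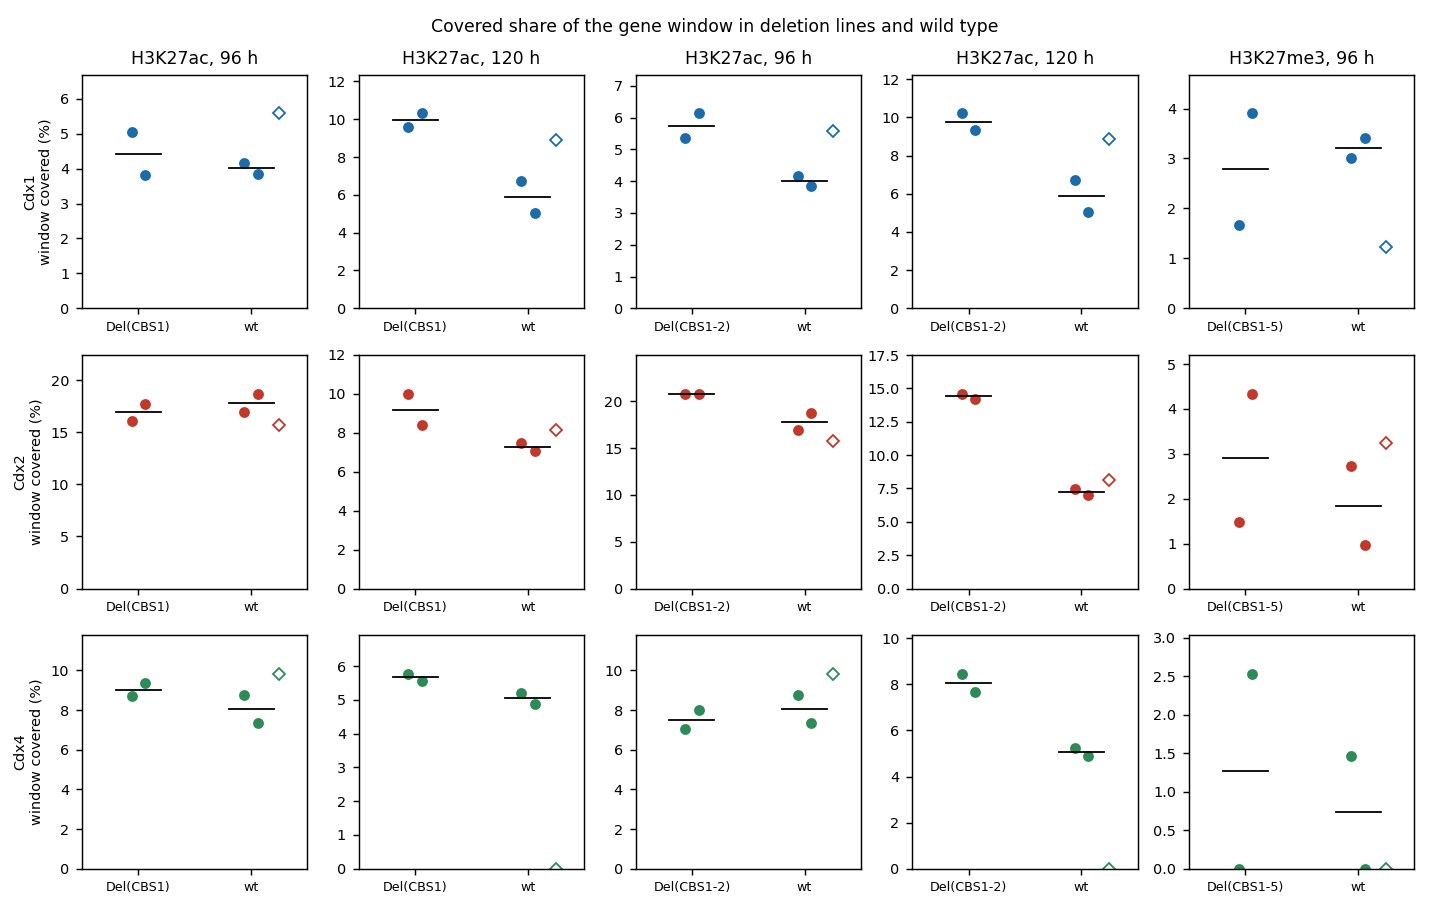
Percent of the gene window covered by called regions in each library of the deletion lines (left in each panel) and wild type (right), for Cdx1, Cdx2 and Cdx4 in rows and the 5 comparisons in columns. Filled circles are numbered libraries, black lines their means (n = 2 each) and open diamonds the unnumbered wild-type library of the stage. At 120 h the deletion lines lie above both numbered wild-type libraries at all 3 genes.

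By covered share H3K27me3 in Del(CBS1-5) stembryos at 96 h overlapped with wt at all 3 genes. It covered 1.49 and 4.34% of the Cdx2 window in Del(CBS1-5), against 2.72 and 0.975% in wt, 1.66 and 3.9% of the Cdx1 window, against 3.0 and 3.41% in wt, and 0.0 and 2.53% of the Cdx4 window, against 1.47 and 0.0% in wt. Over all genes 34.4% were apart and lower and 2.31% apart and higher in Del(CBS1-5). The first Del(CBS1-5) library had the lower value at each of the 3 genes and the shorter list, with 7212 regions against 10844 in the second. By height of the highest summit the groups were apart and higher in Del(CBS1-5) at Cdx2, with 20.3 and 15.8 against 12.1 and 7.37 in wt, and at Cdx1, with 16.1 and 16.2 against 15.4 and 10.7 in wt, where 13.1% of genes were apart and higher. The Cdx2 summits lay at -7.7 and -5.98 kb in Del(CBS1-5) and at -7.54 and -7.83 kb in wt, and Urad ends at -7.71 kb. In the Cdx1 window all of these regions had their summits between 21.60 and 22.88 kb, by the start of Slc6a7. No promoter region was called at Cdx1 or Cdx2 in either group, and Cdx4 had one in 1 of 2 Del(CBS1-5) lists and in 1 of 2 numbered wt lists.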

How the data were processed

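Stembryos were profiled by ChIP-seq or ChIPmentation. Per the submitters' processing notes the authors used cutadapt 1.16, Bowtie2 2.3.4.1, SAMtools 1.8 and MACS2 2.1.1.20160309 on mm10, and they called peaks in each library without an input. The deposited narrowPeak lists give a score, a fold enrichment (a ratio over local background) and −log10 p and q values. Read depth is not given in these lists. Pileup at a summit was solved from fold enrichment and −log10 p and divided by the lowest background of the list, which ranged from 1.12 to 7.21 fragments per base, and at least 99.3% of summits were solved within 0.001. Peaks sharing a base were merged to regions, and 6301 peaks off the assembled chromosomes were left out. Windows, promoters (an overlap of 1 base counted), trends (genes covered at 3 or more stages) and overlaps were computed with Python 3.11.15, NumPy 2.4.6, pandas 2.3.3 and SciPy 1.17.1 over all protein-coding genes, and the scripts were tested on simulated data. The Cdx genes, the axial and marker lists and the tests were chosen with earlier results of these data known. Besides the Cdx genes, the text names genes with bodies in their windows, the 5 genes per Cdx gene with the highest r of H3K27ac coverage that start over 200 kb away, and 4 of 16 axial genes. Alternatives were a 5 kb window, a 2.5 kb promoter, a −log10 q of at least 5, summits only, equal list length, other sets of libraries, heights, leaving out stages or replicates and a replicate block. The other axial genes and the cell type markers are given as counts.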

Additional observations from a re-analysis of the deposited data

How the results depend on the processing

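The Cdx genes had a region in their windows in 145 gene-list pairs, and in 108 to 145 under the alternatives. The 7 CDX2 regions became 0 at equal list length, where the CDX2 lists were cut to 147 regions, and were 5 to 7 otherwise. The number of trends called by rho was 0, and 0 to 2 with a stage left out. The 2 were NIPBL at Cdx2 and Cdx4 without 96 h (rho 0.857 and 0.955, adjusted p 0.0426 and 0.0206). In that setting 68.4% of 13878 genes passed as rising. By r, NIPBL at Cdx4 passed in the main setting, as given above. Groups did not overlap in 8 of 15 comparisons of deletion lines, in 3 at equal list length, in 7 to 11 under the other settings and in 9 to 13 with 1 replicate left out. With 1 replicate left out, 1 library is set against 2 and overlaps only if it lies within their range. Groups are then apart more easily than at 2 against 2, so 9 to 13 does not show that the separation held. The share of all genes was not counted with a replicate left out. With a replicate block, both within-number differences had one sign in 9 of 15. The labels do not say that a number marks a shared culture or day, and there are only 2 pairs in each comparison, so the numbers were not taken to pair the samples. The correlations of deviations were 0.00807, 0.0365, -0.0252 and -0.0672 for H3K27ac and 0.286 for H3K27me3.

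Trends that were not called changed sign at a −log10 q of at least 5 for H3K27ac at Cdx1 (-0.0833) and for NIPBL at Cdx1 (0.22) and Cdx2 (-0.143), at equal list length for NIPBL at Cdx2 (-0.764), and within the cell type tag for RAD21 at Cdx4 (-0.0788). With a stage left out, rho ranged from -0.167 to 0.476 for H3K27ac at Cdx1, -0.381 to 0.19 for H3K27ac at Cdx2, -0.432 to 0.0371 for PolII at Cdx4, -0.321 to 0.429 for NIPBL at Cdx1 and -0.0788 to 0.335 for RAD21 at Cdx4. By summit height Del(CBS1) minus wt at 120 h was -1.34 for Cdx2 and -1.92 for Cdx4. The cause of these changes was not tested beyond the construction of each setting. For H3K27me3 in Del(CBS1-5), height set the groups apart at Cdx1 (3.09) and Cdx2 (8.29), which overlapped by covered share. Of 159 trend values, 141 kept their sign and call, 16 changed sign and the 2 named above passed. Of 165 deletion values, 133 moved by less than the spread between replicates or, by height, kept their overlap. A further 30 moved more or changed their overlap, and 2 of pairs apart in the main setting changed sign. Sign changes of pairs that overlapped in the main setting were not counted separately. Among these, Del(CBS1) minus wt at 96 h went from -0.88 to 2.47 at Cdx2 with a 5 kb window. At Cdx1 it went from 0.42 to -0.11 at equal list length. With a promoter of 2.5 kb, CDX2 regions touched the promoters of Cdx2 in 2 lists and of Cdx1 in 1, against none with 1 kb. NIPBL promoter lists of Cdx1 and Cdx2, 8 and 5 of 8, became 5 and 2 at a −log10 q of at least 5 and 4 and 1 at equal list length. Of all genes 18.2 and 44.8% had as many or more at that q, and 12.2 and 32.9% at equal list length. Leaving out the 6 lists with under 50% of the median region number of their assay, a setting chosen after seeing the data, gave 137 pairs. Depth is not in the lists, so absence of a region limits what can be said about absence of binding.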
